A study of Mus musculus with 4 samples.

Results

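The class I histone deacetylase genes Hdac1, Hdac2, Hdac3 and Hdac8 and the corepressor genes Sin3a, Rcor1, Mta1, Mta3 and Ncor1 were examined in RNA-Seq of mouse cerebral cells. These 9 genes were chosen by symbol from the 24873 genes of the deposited table, and all 9 passed the filter on low values, as did 20485 genes in all. The rule uses symbols of known subunits of deacetylase complexes and no measured value, although earlier results of these data were known when it was set.

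Each of the 4 libraries came from sorted brain cells pooled from 3 mice, collected on day 9. All mice carried a tamoxifen-activated Cre recombinase under the VE-cadherin promoter together with Mgp fl/fl (in the labels, Cdh5cre;Mgpflox/flox). MGP is a secreted inhibitor of BMP signaling. The tamoxifen group (2 libraries) was given 75 mg/kg tamoxifen on each of 5 days, starting at 10 weeks. The control group (2 libraries), of the same age, was given none, so the drug itself and the gene deletion cannot be told apart. By design recombination is limited to cells with an active VE-cadherin promoter, but where it took place was not tested here. Both sexes were used in the study. The study sorted the cells as CD31+CD45-, whereas the labels describe them as tdTomato+ brain cells. Column names in the table start with A or C. C was taken as control and A as the tamoxifen group (AVM, arteriovenous malformation), although the labels use no A.

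Class I deacetylases remove acetyl groups from lysines of histone tails, a change linked to closed chromatin and lower transcription. HDAC1 and HDAC2 are close paralogues that work inside multiprotein complexes: SIN3 on the scaffold SIN3A, NuRD with an MTA subunit, and CoREST, where RCOR1 joins them to the demethylase KDM1A. HDAC3 acts in nuclear receptor corepressor complexes such as that of NCOR1, whereas HDAC8 works without these scaffolds. In endothelium these enzymes are known for restraining or permitting lineage genes, depending on the factors that recruit them.

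Hdac2 is the deacetylase the study is about, so the sequence upstream of it is shown. The stretch holds the 250 bases before the annotated start on the plus strand (RefSeq, GRCm38.p6, chr10:36974294-36974543). The files themselves use GRCm39, where GENCODE M39 places the gene at chr10:36850435-36877890 on the plus strand. The capitals mark the one match to the GC box GGGCGG, read on the other strand.
Hdac2 upstream: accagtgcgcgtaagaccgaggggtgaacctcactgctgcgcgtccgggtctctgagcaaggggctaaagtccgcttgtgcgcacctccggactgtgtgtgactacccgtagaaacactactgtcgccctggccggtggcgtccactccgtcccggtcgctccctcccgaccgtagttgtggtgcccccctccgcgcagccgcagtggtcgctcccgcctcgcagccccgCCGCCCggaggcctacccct

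The Hdac2 stretch had 68.8% G and C against a median of 52.4% over the same 250 bases of all promoters in the RefSeq table, and 27 CpG pairs against a median of 6.0. Promoters of 6 members were in that table (Hdac2, Hdac8, Sin3a, Rcor1, Mta1 and Ncor1). A GC box (GGGCGG, either strand) was found in 5 of the 6, all but Hdac8, and in 32.7% of all 32851 promoters searched. A CCAAT box was found in Hdac8, Rcor1 and Sin3a, and in 33.8% of all promoters. The letters GGCGCC, a GC-rich motif bound by SMAD proteins that also matches its own reverse strand, were found in Mta1 and in 9.59% of all promoters. None of the 6 held the E2F motif TTTGGCGC, which 0.417% of all promoters held. A member was counted when any of its promoters matched, whereas the shares count each promoter by itself, so they are in unlike units. These matches describe letters in a window and were not tested as binding sites.

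Reads on genes came to 37475154 and 41025014 in the 2 controls and to 35387438 and 49799321 after tamoxifen. Levels are given as normalized counts, the reads of a gene divided by the size factor of its library. Each member had between 492 and 20700 reads in a library. The sorted cells held endothelial markers in every library, but the summed level of 14 endothelial markers was 1426861 and 1392468 normalized counts in the 2 controls and 230620 and 111752 after tamoxifen, with all 14 lower. Markers of dividing cells rose in 12 of 12 (sum 3830 and 4645 against 113371 and 105667), neutrophil markers in 8 of 8 (301 and 233 against 110569 and 82306), erythroid markers in 6 of 6 (17397 and 35091 against 159759 and 102371), fibroblast markers in 6 of 6 (2257 and 3213 against 69745 and 59759), and astrocyte markers in 6 of 6 (27117 and 31486 against 134790 and 285980). Pluripotency markers rose in 8 of 8 (95.9 and 161 against 52400 and 40299), whereas pericyte and smooth muscle markers rose in 1 of 8 (25709 and 45539 against 31947 and 65597). Markers of lymphocytes (5 of 5 tested), microglia and macrophages (6 of 8), oligodendrocytes (5 of 6) and neurons (4 of 6) rose as well. The neutrophil marker Prtn3 and the lymphocyte markers Cd3e and Cd3g had at most 3 reads in each control library. Mgp itself stood at 1094 and 1352 normalized counts in the 2 controls and at 945 and 909 after tamoxifen, a difference that did not pass the test (log2 fold change -0.39, limma adjusted p = 0.0986). In such bulk samples fewer cells of a type and less RNA per cell cannot be told apart, and the part of these other cells in the values below was not tested.

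Among the 9 genes, 2 rose after tamoxifen, Hdac2 and Mta3, and none fell. At an adjusted p under 0.05, 22.2% of the members passed (2 of 9), against 58.9% of all genes tested (33.4% of all genes higher and 25.5% lower). The same 2 genes and no others were under 0.05 without the adjustment, and edgeR and DESeq2 on the recovered reads likewise gave 2 higher and 0 lower. The low share depended on the scaling of the libraries: 5 of 9 passed with equal totals (55.6%, against 58.2% of all genes) and 4 of 9 with quantile normalization (44.4%, against 63.3%), all of them higher. With a log2 fold change beyond 1 as a second condition, 0 of the 9 passed by limma, by edgeR or by DESeq2, against 44.7% of all genes (28.6% higher and 16.0% lower). The median absolute log2 fold change of the members was 0.14, against 1.05 over all genes, and their median signed change was 0.02, against 0.05. Both tamoxifen libraries lay above both controls in 2 members and below both in 2, against 82.3% of all genes with groups apart in either direction (43.1% higher and 39.2% lower). With the deposited size factors Hdac2 and Mta3 each rose by less than 2-fold. Their log2 fold changes were 1.02 and 1.27 with equal totals, both beyond 2-fold, and 0.88 and 0.88 with quantile normalization.

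**Figure D1:**
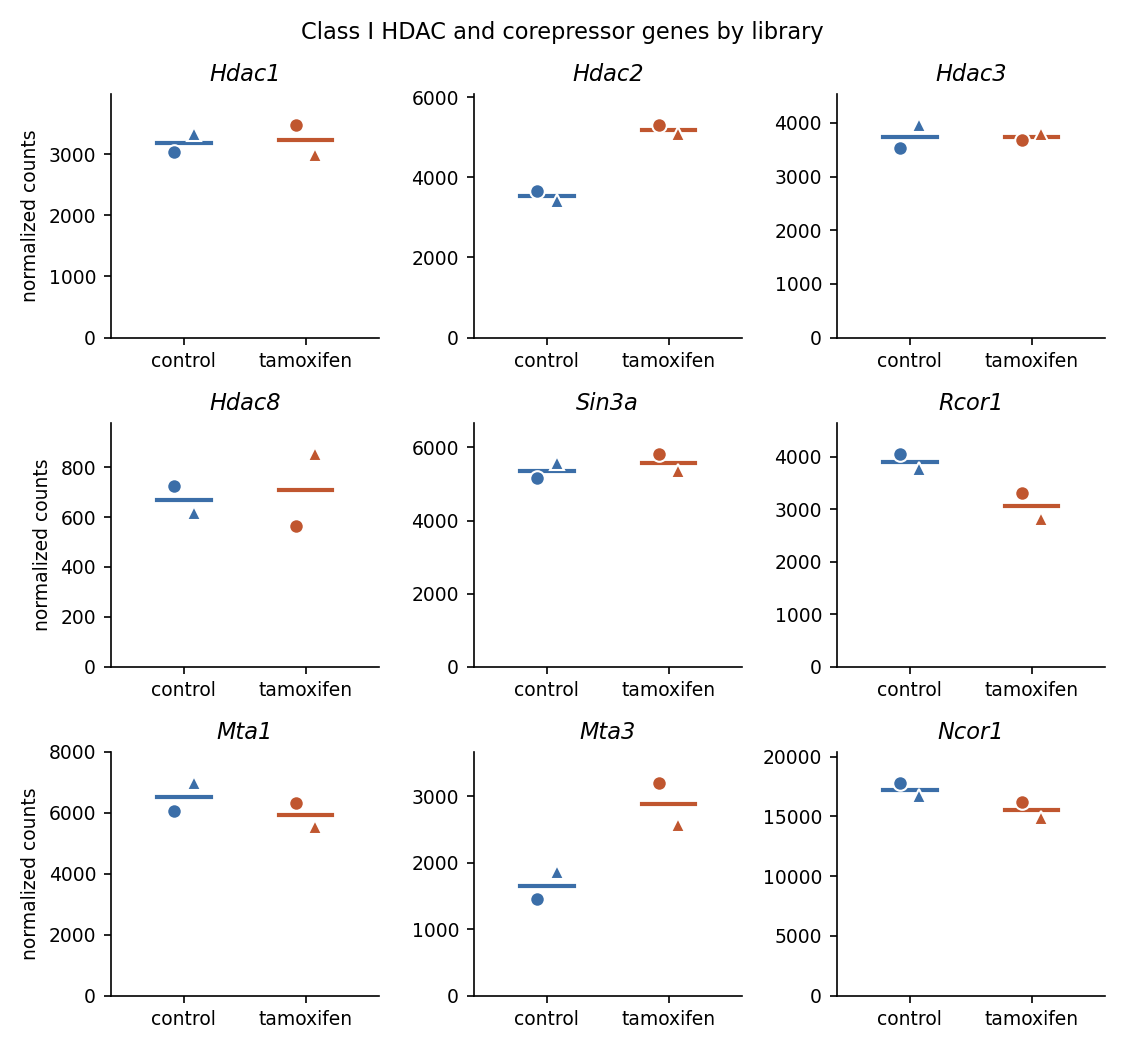
Normalized counts (vertical axes, each from 0) of the 9 genes in the 2 control libraries (blue) and the 2 tamoxifen libraries (orange), with circles for the first and triangles for the second library of a group and bars for the group means. With the deposited size factors the groups are apart for Hdac2, Mta3, Rcor1 and Ncor1, and they overlap for the other 5 genes.

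The comparison of the deacetylases asked whether Hdac2, the enzyme that the study followed, moved alone in its class. Hdac2 stood at 3654 and 3418 normalized counts in the 2 controls and at 5295 and 5086 after tamoxifen. Both tamoxifen libraries were above both controls, and the gap was several times the spread within either group. The mean rose from 3536 ± 167 to 5191 ± 148 (SD, n = 2 each), a fold of 1.47 with a 95% interval of 1.16 to 1.86 (log2 fold change 0.55, SE 0.15, limma adjusted p = 0.0135). Of all genes tested, 69.9% had an absolute change at least as large. The adjusted p of Hdac2 rose above 0.05 whichever single library was left out (0.0564 to 0.0981, with log2 fold changes of 0.51 to 0.60) and when the variance was not modeled on expression (0.0750), while the direction was the same in all 14 alternatives.

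Hdac1, at chr4:129409895-129436631 on the minus strand (GRCm39), encodes the closest relative of HDAC2. It stood at 3027 and 3328 normalized counts in the 2 controls and at 3469 and 2993 after tamoxifen. The groups overlapped, and the test did not pass (log2 fold change 0.02, SE 0.16, 95% interval -0.35 to 0.39, limma adjusted p = 0.914). The interval leaves room for a fold between 0.787 and 1.31.

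Reads of Hdac1 can be shared with processed pseudogenes, the intronless copies of a transcript elsewhere in the genome. A search with blastn found 3 of them in the table. The closest, Hdac1-ps, was 99.4% identical to Hdac1 over 1444 bases and stood at 104 and 111 normalized counts in the 2 controls and at 488 and 464 after tamoxifen (log2 fold change 2.13, limma adjusted p = 0.000469). Gm4864 (94.6% identical over 1469 bases) had 0 reads in both control libraries and 323 and 285 normalized counts in the tamoxifen libraries, at least 77.3-fold higher than the mean of the 2 control floors of 3 reads. Gm5824 (96.3% over 1450 bases) had 1 read in each control library and stood at 75.9 and 71.2 normalized counts in the tamoxifen libraries. All 3 copies were higher after tamoxifen in both libraries, while the parent gene overlapped. Whether their reads came from the copies or from Hdac1 was not tested, and the level of Hdac1 is uncertain to that extent. With the counts of the 3 copies added, Hdac1 came to 3133 and 3441 normalized counts in the 2 controls and 4356 and 3812 after tamoxifen, a log2 difference of 0.31 with the groups apart. No such copy was found for Hdac2, Hdac3 or Hdac8 at the limits used (90% identity over 300 bases).

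Hdac3, the catalytic subunit of the NCoR complexes, stood at 3534 and 3953 normalized counts in the 2 controls and at 3675 and 3794 after tamoxifen. Both tamoxifen values lay between the controls. The log2 fold change was -0.00 (SE 0.15, 95% interval -0.35 to 0.35, limma adjusted p = 0.995).

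Hdac8, the least abundant of the class per kilobase, had 725 and 616 normalized counts in the 2 controls and 566 and 852 after tamoxifen. The tamoxifen libraries held both the lowest and the highest value, so the groups overlapped. Its log2 fold change of 0.06 had the widest interval of the 9 genes (SE 0.25, 95% interval -0.52 to 0.63, limma adjusted p = 0.860), on 492 to 1185 reads per library.

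Since a ratio of paralogues within a library does not change when the library is divided by a single factor, the deacetylases were also compared pairwise. The ratio of Hdac2 to Hdac1 was 1.21 and 1.03 in the 2 controls and 1.53 and 1.70 after tamoxifen. The groups were apart, with a difference of 0.53 on the log2 scale (pooled SD 0.14, exact permutation p = 0.333, the smallest that 2 against 2 libraries can give). With the 3 copies counted as Hdac1, the log2 ratio was 0.22 and -0.01 in the 2 controls and 0.28 and 0.42 after tamoxifen, which left the groups apart but the difference at 0.24. The ratio of Hdac3 to Hdac1 was 1.17 and 1.19 in the control libraries against 1.06 and 1.27, and it overlapped, as did that of Hdac8 to Hdac1 (0.240 and 0.185 against 0.163 and 0.285; exact permutation p = 1.0 for both).

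**Figure D2:**
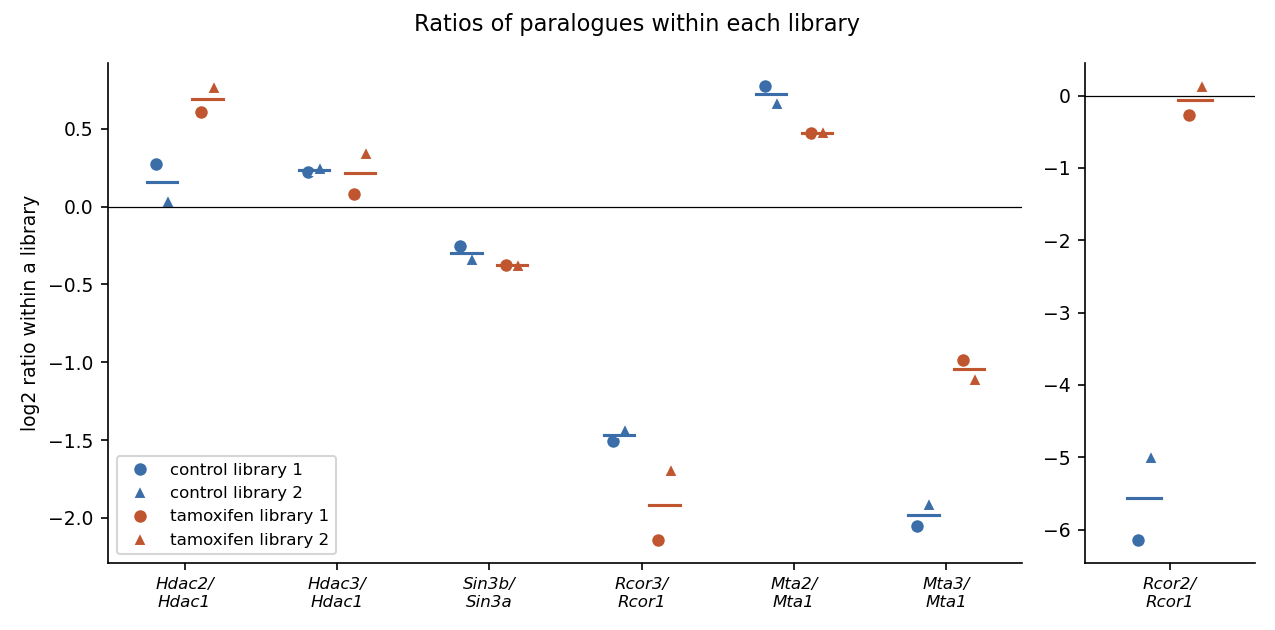
Log2 ratio of 2 paralogues within each library (vertical axes, with a wider range in the right panel), for control (blue) and tamoxifen (orange) libraries, with bars for the group means. Hdac2 to Hdac1, Mta3 to Mta1 and Rcor2 to Rcor1 were higher in both tamoxifen libraries, Mta2 to Mta1, Rcor3 to Rcor1 and Sin3b to Sin3a were lower in both, and Hdac3 to Hdac1 overlapped.

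Among the scaffolds, Sin3a (chr9:56979324-57037381, plus strand) encodes the platform on which the SIN3 complex is built. It stood at 5154 and 5571 normalized counts in the 2 controls and at 5812 and 5344 after tamoxifen. The groups overlapped (log2 fold change 0.06, SE 0.15, 95% interval -0.30 to 0.41, limma adjusted p = 0.768). Its paralogue Sin3b stood at 4332 and 4401 against 4478 and 4114 normalized counts, also with overlap (log2 fold change -0.02, limma adjusted p = 0.897, and 0.45 with equal totals, adjusted p = 0.0187, and 0.29 with quantile normalization). An annotated antisense transcript, Man2c1os, overlaps Sin3a by 452 bases but held only 16.4 to 30.2 normalized counts.

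Rcor1 (chr12:111005769-111082338, plus strand), the bridge of the CoREST complex, stood at 4042 and 3769 normalized counts in the 2 controls and at 3313 and 2812 after tamoxifen. Both tamoxifen libraries lay below both controls, but the difference did not pass the test (log2 fold change -0.35, SE 0.16, 95% interval -0.72 to 0.01, limma adjusted p = 0.0880), and its sign turned with equal totals (0.12). Its paralogue Rcor2, known from embryonic stem cells and neural progenitors, went from 56.2 and 118 normalized counts to 2753 and 3091. This was a 35.4-fold rise (log2 fold change 5.15, SE 0.34, limma adjusted p = 2.87e-05). The third paralogue, Rcor3, fell from 1422 and 1394 to 750.0 and 870.6 normalized counts (log2 fold change -0.80, limma adjusted p = 0.00521), a call lost with equal totals (adjusted p = 0.139) and without the first tamoxifen library (-0.69, adjusted p = 0.0566). The ratio of Rcor2 to Rcor1 thus moved from 0.0141 and 0.0315 in the control libraries to 0.831 and 1.10 in the tamoxifen libraries, a log2 difference of 5.50 (pooled SD 0.61, exact permutation p = 0.333). Per kilobase of merged exons, Rcor2 went from 21.2 to 713 normalized counts, while Rcor1 went from 483 to 378.

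The MTA genes encode alternative subunits of NuRD, the complex that joins deacetylation to nucleosome remodeling. Mta1 (chr12:113061350-113101578, plus strand) stood at 6057 and 6970 normalized counts in the 2 controls and at 6316 and 5525 after tamoxifen. The groups overlapped (log2 fold change -0.14, SE 0.17, 95% interval -0.52 to 0.25, limma adjusted p = 0.498).

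Mta3 (chr17:84013240-84147096, plus strand), the member of the family known for repressing the mesenchymal factor Snail in epithelium, stood at 1457 and 1854 normalized counts in the 2 controls and at 3195 and 2561 after tamoxifen. Both tamoxifen libraries were above both controls, and the libraries within a group differed more than for Hdac2. The mean rose from 1655.5 ± 280.2 to 2878 ± 448 (SD, n = 2 each), a fold of 1.74 with a 95% interval of 1.28 to 2.36 (log2 fold change 0.80, SE 0.19, limma adjusted p = 0.00807). Of all genes tested, 58.7% changed at least as much. The adjusted p was 0.138 without the first tamoxifen library (log2 fold change 0.64), 0.0846 without the second (0.96) and 0.0615 without a variance trend, and Mta3 was higher in all 14 alternatives.

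Mta2, the most abundant of the MTA genes per kilobase, stood at 10372 and 11067 against 8756 and 7701 normalized counts and did not pass (log2 fold change -0.38, limma adjusted p = 0.0821, and 0.09 with equal totals and 0.16 with quantile normalization). Within a library, the ratio of Mta3 to Mta1 went from 0.241 and 0.266 to 0.506 and 0.464 (log2 difference 0.94, pooled SD 0.10, exact permutation p = 0.333), whereas that of Mta2 to Mta1 went from 1.71 and 1.59 to 1.39 and 1.39 (log2 difference -0.25). Mta3 still remained the least abundant of the 3, at 117 normalized counts per kilobase of merged exons in the control group and 204 in the tamoxifen group, against 863 for Mta1 and 1647 for Mta2 after tamoxifen.

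Ncor1 (chr11:62206297-62349368, minus strand), the corepressor that holds and activates HDAC3, stood at 17764 and 16680.0 normalized counts in the 2 controls and at 16229 and 14881 after tamoxifen. Both tamoxifen libraries were below both controls, yet the test did not pass (log2 fold change -0.15, SE 0.18, 95% interval -0.57 to 0.28, limma adjusted p = 0.511), and the sign turned with equal totals (0.32) and with quantile normalization (0.53), where Ncor1 passed as higher (adjusted p = 0.0151). A transcript of Ttc19 matches Ncor1 over 2563 bases. The strand of this match was not checked, so whether reads could be split between these genes is not known.

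Compared per length, the order of the 9 genes changed mainly through Hdac2 by merged exons, but through several genes by the longest coding transcript. Per kilobase of merged exons, the control means ran from 950 normalized counts for Mta1 through 883 for Ncor1, 851 for Hdac3, 750.2 for Sin3a, 680 for Hdac1, 610 for Hdac2 and 483 for Rcor1 to 117 for Mta3 and 78.5 for Hdac8. In the tamoxifen group Hdac2 stood first, at 895, followed by Mta1 at 863, Hdac3 at 849, Ncor1 at 797 and Sin3a at 780.4. The values of Hdac2 per kilobase were 630 and 590 in the 2 controls and 913 and 877 after tamoxifen, so it overlapped with Mta1 (921 and 806) and was close to Hdac3 (835 and 862). With the longest coding transcript as the length, Hdac2 moved from rank 5 to 2 and Hdac1 from rank 3 to 1. Ncor1 then moved from rank 1 to 3 and Mta1 from 2 to 4. Hdac1 stood at 1581 and Hdac2 at 1535 normalized counts per kilobase after tamoxifen, so the first place of Hdac2 depended on the length used. Hdac8 was last and Mta3 next to last in both groups by either length.

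The scaling of the libraries bore on every small change. Summed over all genes, the normalized counts after tamoxifen came to 0.722 of the control sum, and setting all libraries to equal totals shifted the median log2 fold change of all genes by 0.47, while quantile normalization shifted it by -0.25. Of the genes called at both thresholds, 64.1% were higher in the main analysis, 79.7% with equal totals and 47.2% with quantile normalization. Relative to the median of all genes, Hdac2 was higher by 0.50 with the deposited size factors, by 0.51 with equal totals and by 1.08 with quantile normalization, and Mta3 by 0.75, 0.75 and 1.08. Both thus stayed above the median gene under the 3 scalings. Rcor1 stood at -0.41, -0.40 and 0.07 relative to the median, and Ncor1 at -0.20, -0.19 and 0.73, so their place below the median gene was lost with quantile normalization. With equal totals Hdac1, Hdac3 and Sin3a passed the test as higher (log2 fold changes 0.49, 0.47 and 0.53), at about the shift of the median gene itself. With quantile normalization Sin3a (0.46, limma adjusted p = 0.0179) and Ncor1 (0.53, limma adjusted p = 0.0151) passed as higher, at 0.66 and 0.73 above the median gene.

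**Figure D3:**
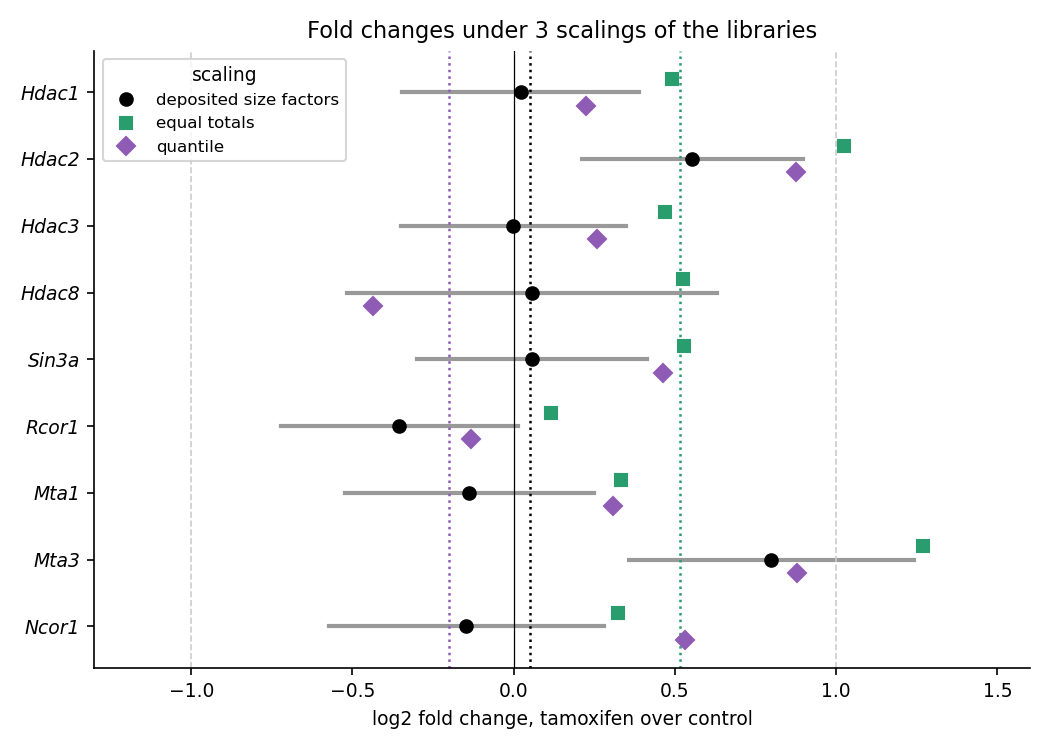
Log2 fold change of tamoxifen over control (horizontal axis) for the 9 genes with the deposited size factors (black circles, with grey bars for the 95% interval of limma), with equal totals (green squares) and with quantile normalization (purple diamonds), where dotted lines mark the median of all genes under the scaling of the same color and dashed lines a log2 fold change of 1 in either direction. Hdac2 and Mta3 lie to the right of 0 under the 3 scalings, whereas Hdac3, Hdac8, Rcor1, Mta1 and Ncor1 change sign with at least 1 scaling.

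The other subunits of the same complexes were described from fixed lists of 41 genes. Of these, 6 rose, 14 fell and 21 did not pass (48.8% passed, against 58.9% of all genes), with a median log2 fold change of -0.32. With equal totals the counts turned to 12 higher and 3 lower, whereas quantile normalization left them close, at 7 higher and 14 lower. Over all 20485 genes tested, 6843 were higher and 5228 lower in the main analysis. These became 9068 and 2862 with equal totals, and 5809 and 7166 with quantile normalization.

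In the SIN3 complex 4 of 15 further subunits rose and 7 fell (73.3% passed, against 58.9% of all genes). The genes that rose were Sinhcaf, a subunit of SIN3 in embryonic stem cells (208.2 and 207.8 against 740.2 and 683.0 normalized counts, log2 fold change 1.77, limma adjusted p = 0.000427), Sap30, which bridges SIN3 to the deacetylases (1.55), and the histone chaperones Rbbp4 (0.58) and Rbbp7 (0.59), which SIN3 shares with NuRD. The genes that fell were Brms1, Arid4a (-0.81), Sap30l (-0.71), Arid4b (-0.65), Brms1l (-0.62), Suds3 (-0.59) and Ing2 (-0.50). Brms1 had the largest fall (log2 fold change -2.78, limma adjusted p = 0.00803), but on low values of 31.5 and 47.6 against 7.59 and 2.88 normalized counts, and its call was lost without the second tamoxifen library (-2.21, adjusted p = 0.0896). With equal totals the SIN3 list held 6 higher and 1 lower.

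Of the 9 further subunits listed for NuRD alone, none rose and 2 fell (22.2% passed, against 58.9% of all genes). Rbbp4 and Rbbp7, which rose, also belong to NuRD but were counted in the SIN3 list only. Those that fell were the methyl-CpG binding protein Mbd2 (6097 and 7029 against 3765 and 3321 normalized counts, log2 fold change -0.89, limma adjusted p = 0.00228) and Gatad2a (-0.60). Mbd2 had an adjusted p of 0.0658 without the second tamoxifen library (-0.80), and with equal totals 2 of the 9 were higher and 1 lower. The remodeling ATPases Chd3, Chd4 and Chd5 did not pass.

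In CoREST 2 of 9 rose, Rcor2 and Kdm1a (4931 and 4816 against 6691 and 6842 normalized counts, log2 fold change 0.47), and 3 fell, among them Hmg20b (5461 and 6030 against 2533 and 2162 normalized counts, log2 fold change -1.29, limma adjusted p = 0.000332) and Rcor3. HMG20B is a DNA-binding subunit of CoREST. Of the 41 subunit genes, the CoREST list held the largest rise (Rcor2) and the second largest fall (Hmg20b). The SIN3 list held the largest fall (Brms1) and the second largest rise (Sinhcaf). Of the CoREST list 55.6% passed, against 58.9% of all genes, and with equal totals it held 4 higher and 1 lower.

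Of 5 NCoR subunits 1 fell (20.0% passed), and of 3 MiDAC subunits 1 fell (33.3% passed), against 58.9% of all genes passing. The NCoR gene was Gps2, an inhibitor of JNK signaling within the complex (2355 and 3048 against 1558 and 1284 normalized counts, log2 fold change -0.92, limma adjusted p = 0.00417). Its adjusted p was 0.0738 without the first tamoxifen library (-1.06), 0.116 without the second (-0.78) and 0.0624 with equal totals (-0.45). Of the 3 subunits of the mitotic deacetylase complex MiDAC, Trerf1 fell (2922 and 2643 against 2066 and 1758 normalized counts, log2 fold change -0.54, limma adjusted p = 0.0211), a call lost with equal totals (-0.07, adjusted p = 0.668), without a variance trend (adjusted p = 0.0972), and without the first (-0.66) or the second tamoxifen library (-0.43) or the first control library (-0.47).

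**Figure D4:**
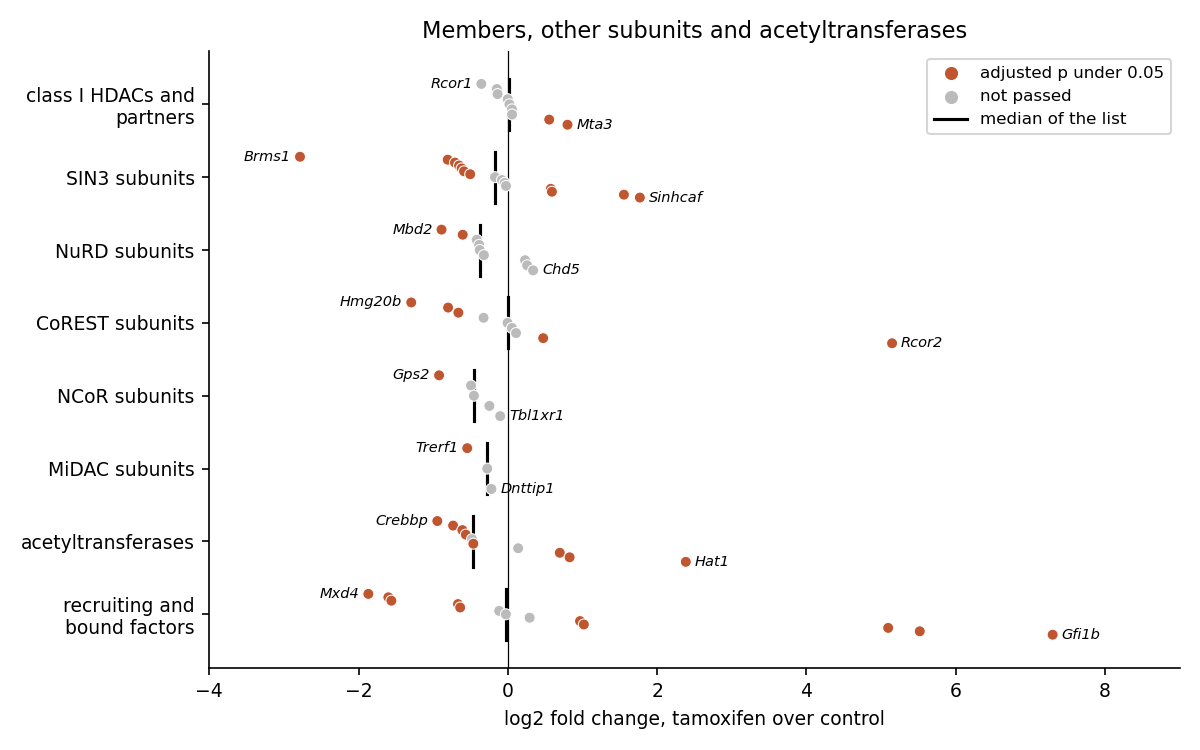
Log2 fold change of tamoxifen over control (horizontal axis) for the 9 members, the subunits of 5 deacetylase complexes, the acetyltransferases and the recruiting factors, with 1 point per gene, orange at an adjusted p under 0.05 and grey otherwise, and black bars for the list medians. The members lie between -0.35 and 0.80, and Rcor2 and Brms1 mark the ends of the subunit lists. With equal totals the counts of higher and lower subunits turn from 6 and 14 to 12 and 3. For all genes tested they go from 6843 and 5228 to 9068 and 2862.

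The opposing enzymes, histone acetyltransferases, moved in both directions. Of 10 genes 3 rose and 5 fell (80.0% passed, against 58.9% of all genes). The counts were 4 and 1 with equal totals, and 4 and 3 with quantile normalization. Hat1, which acetylates newly made histones, rose 5.22-fold (829 and 836 against 4854 and 3896 normalized counts, log2 fold change 2.38, SE 0.17, limma adjusted p = 3.78e-05), and Kat6b (0.83) and Kat7 (0.70) rose less. Crebbp, a broad coactivator, fell (11035 and 9394 against 5094 and 5494 normalized counts, log2 fold change -0.94, limma adjusted p = 0.00192), with adjusted p values of 0.0596 and 0.0567 without the first and the second tamoxifen library. Kat6a (-0.73), Kat5 (-0.61), Ep300 (-0.56) and Kat8 (-0.46) also fell, of which Kat8 turned sign with equal totals (0.01) and Ep300 with quantile normalization (0.01).

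Of 13 factors that recruit these complexes to DNA or are bound by them, 5 rose and 5 fell (76.9% passed, against 58.9% of all genes), with 6 higher and 3 lower under equal totals and 4 and 3 under quantile normalization. The largest rise was that of Gfi1b, a repressor of blood cell lineages that recruits CoREST (5.48 and 1.25 against 778 and 462 normalized counts, with 4 and 1 reads in the control libraries, limma adjusted p = 8.75e-05). Ikzf1 (log2 fold change 5.52) and Gfi1 (5.09, on 1 and 4 reads in the control libraries), also factors of blood cells, rose with it. So did Rest (1.02), which binds CoREST and SIN3, and Bcl6 (0.97), which binds NCoR. The largest fall was that of Mxd4, a MYC antagonist that recruits SIN3 (15051 and 15385 against 4252 and 4085 normalized counts, log2 fold change -1.87, limma adjusted p = 6.79e-05). Zbtb16 (-1.60), Nr1d1 (-1.56) and Mxi1 (-0.64) were among the others that fell. The 2 controls of Nr1d1 lay far apart, at 4432 and 8585 normalized counts against 2032 and 2153 after tamoxifen, so the size of its fall is uncertain. The leukocyte gene Ptprc, which encodes CD45 and against which the cells were sorted, rose from 50.7 and 83.9 to 1423 and 1119 normalized counts in the same libraries, and its part in the rise of the blood cell factors was not tested.

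Of the tested genes, 13668 had a mean of 100 normalized counts or more. Genes of the lists used here were left out before these were ranked by nearness to Hdac2. The 5 remaining genes whose log2 pattern over the 4 libraries lay nearest to that of Hdac2 were D030056L22Rik (Euclidean distance 0.026), Nedd4 (0.035), Manf (0.036), Ndufb6 (0.045) and Hpf1 (0.047). Nedd4, a ubiquitin ligase, stood at 42082 and 39605 normalized counts in the 2 controls and at 62848 and 59822 after tamoxifen. Manf, a factor of the endoplasmic reticulum stress response, stood at 2400 and 2242 against 3372 and 3308. The log2 fold changes of the 5 genes ran from 0.53 to 0.59 beside 0.55 for Hdac2. Nedd4 (limma adjusted p = 0.0840) and Ndufb6 (limma adjusted p = 0.0589) did not pass the test, and the others did. With 4 libraries that fall into 2 groups, the distance is a description and no test.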

How the data were processed

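RNA-Seq of sorted cerebral cells was available for 2 control and 2 tamoxifen libraries. Per the submitters' processing notes, reads were aligned with STAR 2.7.10a to GRCm39 and normalized with DESeq2 1.36.0. The annotation release, the strand setting and the low-count limit are not given in the sources used here. The values the authors deposited are a signal for each gene: its read count over the size factor of the library, called the normalized count. The smallest step of a column gives the worth of 1 read, and with it 100% of values were whole to within 0.01 of a read, at 35387438 to 49799321 reads per library. A floor of 3 reads covers counting error only. The table had 0 columns of other samples.

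Differences were tested in R 4.3.3 by limma 3.58.1, using lmFit and trended eBayes, after taking log2(normalized count + 1). Genes averaging under 10 normalized counts were left out, and p-values had Benjamini-Hochberg adjustment over all genes tested. A gene was said to rise or fall at an adjusted p under 0.05, and the second rule added an absolute log2 fold change over 1. Fold changes are on the log2(normalized count + 1) scale. Each library was a separate pool of mice, and p-values measure only the spread between these libraries. Paralogue ratios were tested with a two-sided exact permutation test over libraries. Positions, lengths and a blastn search for copies used GENCODE M39. The unit differed from counts, so that count models served as alternatives: on the recovered reads edgeR 4.0.16 called 9241 genes and DESeq2 1.42.0 called 8739, against 9151 with limma. The scripts were tested on simulated data.

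The 9 members and all lists were chosen with earlier results of these data known, and the lists give no independent support. The named genes were the members, their paralogues, the largest rise and fall in each list past the test, and the 5 genes outside the lists nearest to Hdac2. Some genes of the lists are counted there but not reported here by name. Copies of Hdac1 and the other genes that passed within a list were added after their values were seen. As alternatives, the pseudocount was set to 0.5 or 5, the filter was dropped or raised to a mean of 100, libraries were set to equal totals or quantile normalized, the variance trend was dropped, the replicate number was added as a block, both count models were run, 1 library at a time was removed, and the adjusted p was used by itself. Levels by the longest coding transcript and fold changes centred on the median gene were chosen after seeing the data.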

Additional observations from a re-analysis of the deposited data

How the results depend on the processing

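The limits lie in 2 libraries per group, in the scaling, and in the cell type markers that differed between the groups, whose part was not tested. The count of genes called was 9151, 5934 with a filter at a mean of 100, and 4147 to 9700 with 1 library left out (lowest without the second tamoxifen library, 4147, and 5024 without the first). The remaining library of a group was then assumed to vary like the other group. Of the 9 genes 0 were called at both thresholds, against 2 with equal totals and 2 with the adjusted p alone. Of the 41 partner subunits 5 were called, against 8 with quantile normalization and 20 with the adjusted p alone. Hdac2 kept its log2 fold change of 0.55 without a variance trend, with an adjusted p of 0.0750, and ranged from 0.51 to 0.60 with 1 library left out. Hdac2 had an adjusted p under 0.05 in 9 of 14 alternatives and Mta3 in 11 of 14. The cause was not tested for any of these changes.

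Signs turned as follows. With equal totals the log2 fold changes were 0.47 for Hdac3, 0.12 for Rcor1, 0.33 for Mta1, 0.32 for Ncor1, 0.45 for Sin3b and 0.087 for Mta2. With quantile normalization they were 0.26 for Hdac3, -0.43 for Hdac8, 0.31 for Mta1, 0.53 for Ncor1, 0.29 for Sin3b and 0.16 for Mta2. DESeq2 gave 0.016 for Hdac3. With 1 library left out the ranges were -0.085 to 0.13 for Hdac1, -0.082 to 0.079 for Hdac3, -0.24 to 0.35 for Hdac8, -0.0040 to 0.12 for Sin3a and -0.086 to 0.036 for Sin3b. The median over the 9 genes was 0.49 with equal totals, 0.31 with quantile normalization, -0.030 when centred on the median gene (an alternative added after seeing the data) and -0.047 to 0.079 with 1 library left out. Under quantile normalization the log2 differences of the ratios were -0.66 for Hdac8 to Hdac1, -0.17 for Sin3b to Sin3a, 4.80 for Rcor2 to Rcor1, -0.94 for Rcor3 to Rcor1, -0.15 for Mta2 to Mta1 and 0.57 for Mta3 to Mta1.

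The replicate numbers share no stated litter or batch, and the deviations of same-numbered libraries correlated at r = 0.0251 over genes. With the number as a replicate block, 9525 genes were called, and the adjusted p was 0.0113 for Hdac2 and 0.000152 for Mta3. The block changed the call of none of the 9 genes.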
